A study of Mus musculus with 18 samples.

Results

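Circular RNAs of 6 mouse genes were examined: Nfatc3, Nfatc2 and Nfat5, which encode transcription factors of the NFAT family, and Ppp3ca, Ppp3cb and Ppp3cc, which encode the catalytic subunits of the phosphatase calcineurin. The genes were picked by name after circle counts of these libraries had been seen, so their counts are a description of these brains and the tests below support no selection of the genes. Every circle whose gene label names a member was kept, which gave 226 of the 208914 circles listed with Illumina reads and 161 of the 166212 listed with Oxford Nanopore (ONT) reads, 85 of them on both platforms. Whole brains of male C57BL/6J mice aged 3 to 4 months were compared in 3 genotypes. The first was wild type (WT). The second was Adar2-/-Gria2R/R (Adar2KO), which lacks the editing enzyme ADAR2 and carries Gria2R/R, an allele of a glutamate receptor gene in which the edited codon is already in the genome. The third was Adar1E861A/E861A Ifih-/-Adar2-/-Gria2R/R (Adar1-2KO), in which ADAR1 is in addition catalytically inactive and Ifih, the gene of a sensor of double-stranded RNA, is absent. Both mutants carry Gria2R/R and lack Adar2, and no group carries Gria2R/R, Ifih-/- or Adar1E861A/E861A alone, so the contributions of these alleles cannot be told apart. Each genotype had 3 Illumina and 3 ONT libraries, named below by genotype and replicate number. Replicate 1 of the ONT WT group and the CIRI2 counts of Adar1-2KO replicate 1 were not analysed here.

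Calcineurin is a phosphatase that is switched on by calcium and calmodulin and is abundant in neurons. It removes phosphates from the NFATc proteins, which then enter the nucleus and bind DNA. Nfatc2 and Nfatc3 belong to this calcium-responsive branch, whereas Nfat5 lacks the calcineurin docking region and is known for its response to osmotic stress. Circular RNAs form when the end of an exon is spliced back to the start of the same or an upstream exon, and they are seen as reads across that back-splice junction. ADAR enzymes convert adenosine to inosine in double-stranded RNA, and paired repeats in flanking introns are one known route to circle formation.

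Total RNA had been enriched for circles with RNase R, an enzyme that digests linear RNA, and amplified before sequencing. Illumina back-splice reads counted by CIRIquant ranged from 1516772 to 4308264 per library, and ONT reads on circles from 186594 to 673705. PCR reads without molecular identifiers are not independent molecules, so intervals from read counts cover counting error only. The libraries of Adar1-2KO replicate 3 stood apart: the Illumina library listed 21736 circles against 54244 to 76743 in the other 8, and 59.1% of all tested circles and 51.4% of the 72 tested member circles were at 0 there. Circles of the 7 neuronal marker genes were detected for all 7, with summed levels of 21200 to 26400 counts per 1e6 circle reads (CPM). Most of this sum came from Rims1 (7450 to 12500 CPM) and Rims2 (10500 to 15100 CPM). Syt1, Grin2b and Rbfox3 had 850 to 1550, 647 to 810 and 55.7 to 200 CPM, and Snap25 and Camk2a only 2.92 to 19.4 and 3.39 to 37.8 CPM. The sum thus mainly reflects the circles of Rims1 and Rims2. The 2 liver markers, Alb and Apob, were at 0 and the T cell markers summed to at most 3.69 CPM. The 2 heart muscle markers, Myh6 and Ttn, were both detected and summed to 0 to 17.6 CPM. In whole brain, fewer cells of a type and less RNA per cell cannot be told apart.

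The sequences that carry the Nfatc3 and calcineurin results are given first, 5′ to 3′ in the sense of the gene, from the GENCODE M21 transcripts whose exon lengths matched those of the circles exactly. Nfatc3 and Nfatc2 have exons 6 and 7 of the same lengths, 141 and 56 bases, and both stretches are shown whole because Nfatc3 makes its most abundant circle from them and Nfatc2 has no listed circle of these exons. Lower case marks exon 6 and capitals mark exon 7.
Nfatc3 exons 6-7: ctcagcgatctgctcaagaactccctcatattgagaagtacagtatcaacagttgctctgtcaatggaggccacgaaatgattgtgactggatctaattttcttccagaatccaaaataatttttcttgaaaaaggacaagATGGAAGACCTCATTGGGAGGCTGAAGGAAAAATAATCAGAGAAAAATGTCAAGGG
Nfatc2 exons 6-7: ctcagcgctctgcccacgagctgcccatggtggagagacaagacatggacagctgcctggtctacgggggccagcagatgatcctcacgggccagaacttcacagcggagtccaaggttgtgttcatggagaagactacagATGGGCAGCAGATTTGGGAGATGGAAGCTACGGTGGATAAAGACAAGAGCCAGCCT
The pair shared 107 of 197 bases (54.3%), 56.7% in exon 6 and 48.2% in exon 7.

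Next come the back-splice junctions of the leading circles, each as the last 30 bases of the circle's last exon in lower case followed by the first 30 bases of its first exon in capitals. They are the sequences that the counted reads cross.
Nfatc3 exons 6-7 junction: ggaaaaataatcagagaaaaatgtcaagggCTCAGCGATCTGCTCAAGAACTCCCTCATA
Nfatc3 exon 2 junction: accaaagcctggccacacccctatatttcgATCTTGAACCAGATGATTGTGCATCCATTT
Nfatc3 exons 2-3 junction: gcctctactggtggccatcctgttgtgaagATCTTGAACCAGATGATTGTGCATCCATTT
Nfatc2 exons 7-9 junction: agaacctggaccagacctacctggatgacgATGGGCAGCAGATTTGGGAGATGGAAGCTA
Ppp3ca exons 3-8 junction: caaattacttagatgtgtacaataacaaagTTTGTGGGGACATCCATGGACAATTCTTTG
Ppp3ca exons 2-8 junction: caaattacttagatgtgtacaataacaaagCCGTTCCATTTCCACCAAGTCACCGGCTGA
Ppp3cc exons 2-4 junction: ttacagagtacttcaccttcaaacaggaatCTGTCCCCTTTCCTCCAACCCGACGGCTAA
The Nfatc3 exon 2 and exons 2-3 circles share the capitals, since both start at exon 2. Likewise, the Ppp3ca circles of exons 3-8 and 2-8 share the lower-case side and differ in the first exon. Only coding exons enter these circles, and coordinates below are those of the deposited files, build GRCm39.

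Nfatc3 was the main source of circle reads among the 6 genes, with 31764 of the 56917 Illumina reads of all members. Ppp3cc followed with 12369 reads, Ppp3ca with 7601, Nfatc2 with 3412, Nfat5 with 1145 and Ppp3cb with 626. The members together held 0.189% to 0.282% of a library's back-splice reads. With ONT, Nfatc3 had 1942 of 5178 member reads, Ppp3ca 1560, Ppp3cc 994, Nfatc2 419, Nfat5 172 and Ppp3cb 91, so Ppp3ca stood above Ppp3cc on that platform. Circles listed as antisense to a member, nearly all of them on ONT, are included in these sums, and 22 of the 91 Ppp3cb reads are from such a circle. Of the 226 Illumina circles, 72 had at least 5 reads in at least 3 libraries and entered the tests: 20 of Nfatc3, 18 of Ppp3cc, 13 of Ppp3ca, 8 of Nfatc2, 7 of Nfat5 and 6 of Ppp3cb. The same filter left 25 of 161 ONT circles, none of them from Ppp3cb.

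Nfatc3, a calcium-responsive NFAT factor, made 1 circle far above its others on Illumina. It consists of exons 6 and 7 (chr8:106825704-106827621, plus strand, 197 bases spliced) and held 77.1% of the gene's Illumina reads and 54.0% of its ONT reads. The ONT share rests mainly on Adar1-2KO, since it was 18.2% to 44.5% per library in WT and Adar2KO. In WT 2, Adar2KO 2 and Adar2KO 3 the circle of exon 2 alone had more ONT reads. CIRIquant counted 2343, 1712 and 1428 reads of the exons 6-7 circle in WT 1, 2 and 3. The Adar2KO libraries had 2371, 1408 and 4021 reads and the Adar1-2KO libraries 3612, 2163 and 5441. Scaled to library size with TMM, these were 744, 760.9 and 895.6 CPM in WT, 918.6, 610.4 and 1344 CPM in Adar2KO, and 1072, 950.9 and 1321 CPM in Adar1-2KO. All 3 Adar1-2KO libraries lay above all 3 WT libraries, while Adar2KO spanned both. The edgeR quasi-likelihood test gave a log2 difference of 0.48 ± 0.25 (SE) for Adar1-2KO against WT with a Benjamini-Hochberg adjusted p of 0.784, so the difference did not pass. CIRI2, the other caller run on the same Illumina reads, counted 2446, 1781 and 1482 reads in WT, 2452, 1424 and 4233 in Adar2KO, with 2179 and 5498 in Adar1-2KO 2 and 3. CIRIquant counts of this circle were 95% to 99.3% of the CIRI2 counts in every library with both, so the callers gave nearly the same counts.

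On ONT the same circle separated the genotypes more widely. It had 41 and 49 reads in WT 2 and 3, 57, 39 and 46 reads in Adar2KO 1 to 3, and 269, 175 and 372 reads in Adar1-2KO 1 to 3. These correspond to 189.1 and 240.7 CPM in WT, 152.8, 92.97 and 106.4 CPM in Adar2KO, and 640, 597.3 and 574 CPM in Adar1-2KO. The 3 Adar1-2KO libraries were well above the others and the 3 groups did not overlap. The share of all ONT circles without overlap was not computed. Against Adar2KO the circle rose in Adar1-2KO by 2.36 ± 0.26 on the log2 scale, a 5.14-fold difference with an adjusted p of 0.00459 (edgeR quasi-likelihood test). It was the only one of the 25 tested member circles called in that comparison, in which 0.492% of all tested ONT circles were called in either direction and 0.367% as higher. Against WT the difference was 1.49 ± 0.29, or 2.81-fold, with an adjusted p of 0.241. That value did not pass, and DESeq2, run as an alternative, gave an adjusted p of 0.00111 while the other alternatives gave 0.0804 to 0.953. In Adar2KO against WT the ONT difference was -0.87 ± 0.28 (edgeR, unadjusted p of 0.0108), which did not pass after adjustment. The wider gap between the mutants thus includes a lower level in Adar2KO than in WT. The Illumina difference between Adar1-2KO and Adar2KO was 0.22 ± 0.25 on the log2 scale. Whether the platforms differ in this effect was not tested.

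**Figure D1:**
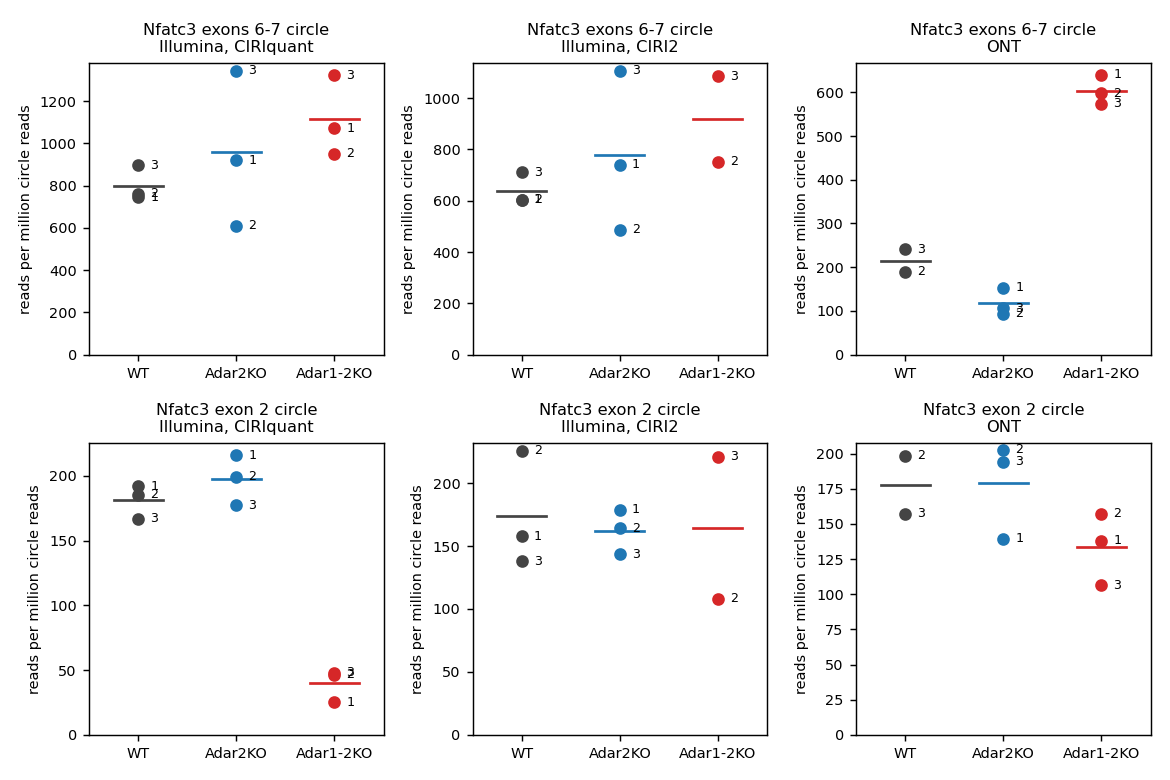
Level of the Nfatc3 exons 6-7 circle (top) and exon 2 circle (bottom) in CPM, by genotype, for CIRIquant and CIRI2 counts of the Illumina libraries and for ONT reads, where points are libraries with their replicate number and bars are group means. The exon 2 circle of Adar1-2KO lies at 25.23 to 47.84 CPM by CIRIquant, below every WT and Adar2KO library, but overlaps them by CIRI2.

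The circle made of exon 2 alone (chr8:106805236-106806373, plus strand, 1138 bases) was the second most abundant of Nfatc3. CIRIquant counted 604, 417 and 266 reads in WT, 557, 460 and 530 in Adar2KO, with 85, 106 and 197 in Adar1-2KO. In CPM the WT libraries had 191.8, 185.3 and 166.8, the Adar2KO libraries 215.8, 199.4 and 177.2, and the Adar1-2KO libraries 25.23, 46.6 and 47.84. Every Adar1-2KO library was below every other library. Against WT the circle fell by 2.18 on the log2 scale, with an SE of 0.37, a 4.54-fold lower level (edgeR quasi-likelihood test, adjusted p of 0.0495). It was the only one of 72 member circles called in this comparison, where 0.0627% of all tested circles were called in either direction and 0.0392% as lower. Against Adar2KO the difference was -2.31 ± 0.37 with an adjusted p of 0.0628, which did not pass. The authors' deposited table of Adar1-2KO against WT gives this circle a log2 fold change of -2.14 with a standard error of 0.859, a p of 0.0127 and an adjusted p of 0.911.

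The call of the exon 2 circle in Adar1-2KO against WT was made with CIRIquant counts and not with CIRI2 counts or ONT reads. CIRI2 counted 639, 666 and 287 reads in WT, 592, 480 and 548 in Adar2KO, with 313 and 1119 in Adar1-2KO 2 and 3. With these counts the edgeR difference was -0.08 ± 0.36 against WT (adjusted p of 0.978) and 0.02 ± 0.36 against Adar2KO (adjusted p of 0.997). ONT had 43 and 32 reads in WT, 52, 85 and 84 in Adar2KO, with 58, 46 and 69 in Adar1-2KO. In CPM these were 198.3 and 157.2 in WT, 139.4, 202.6 and 194.2 for Adar2KO, and 138, 157 and 106.5 for Adar1-2KO. All Adar1-2KO values lay below both WT values, the highest by a narrow margin, and overlapped those of Adar2KO. The ONT difference was -0.42 ± 0.33 against WT with an adjusted p of 0.838 by edgeR. The call was also at the edge of its threshold, since it was lost without any 1 of 8 of the 9 libraries (adjusted p of 0.0971 to 0.234) and stayed without Adar1-2KO replicate 3 (0.0208). The other alternatives gave 0.00625 to 0.978. CIRIquant counts were 94.5%, 62.6% and 92.7% of the CIRI2 counts in WT, 94.1%, 95.8% and 96.7% in Adar2KO, but 33.9% and 17.6% in Adar1-2KO 2 and 3.

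That gap between callers was rare. Among 3567 circles with at least 50 CIRI2 reads in all 8 libraries with both tables, the median ratio of CIRIquant to CIRI2 reads was 85.4% to 90.0% per library. In 124 of them (3.48%) both Adar1-2KO libraries lay below all 6 others, and in 333 (9.34%) both lay above. For the Nfatc3 exon 2 circle the highest Adar1-2KO value was 28.7 percentage points below the lowest of the others, a gap reached by 7 other circles, while 1 circle had a gap as wide in the opposite direction. None of the other 18 member circles with at least 20 CIRI2 reads in all 8 libraries had both Adar1-2KO libraries below the rest. Why the CIRIquant counts of the exon 2 circle are so far below the CIRI2 counts in Adar1-2KO was not tested.

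**Figure D2:**
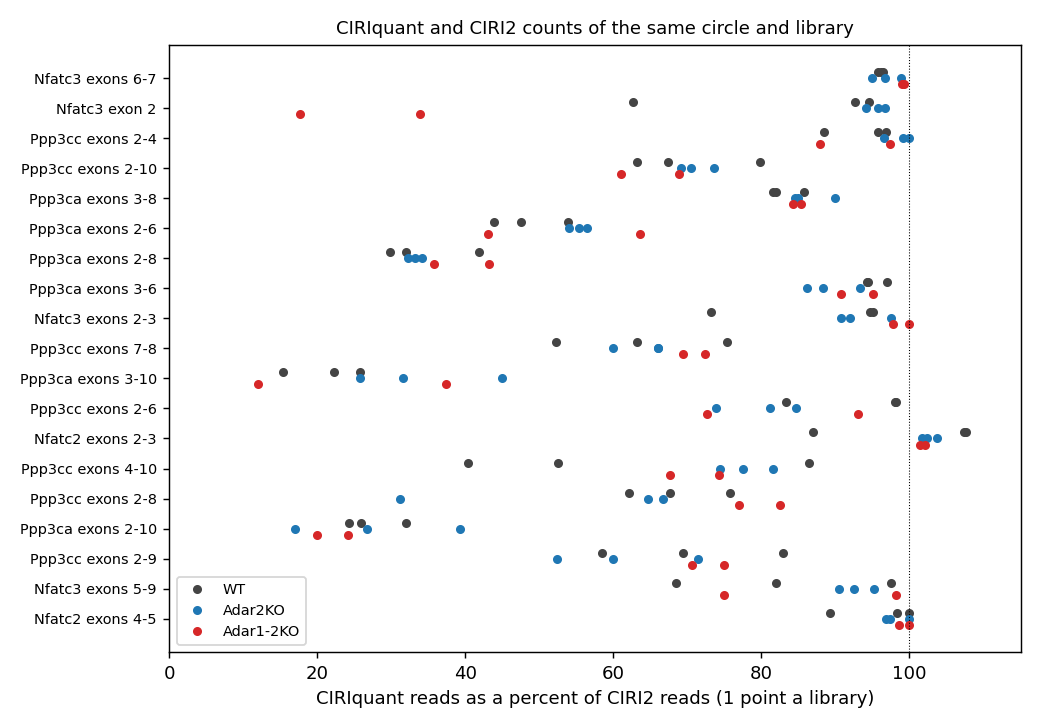
CIRIquant reads as a percent of CIRI2 reads for 19 member circles with at least 20 CIRI2 reads in every library, where points are the 8 libraries with both tables, coloured by genotype, and the dotted line marks equal counts. The Nfatc3 exon 2 circle of Adar1-2KO lies at 33.9% and 17.6%, whereas the Ppp3ca exons 2-8 circle is low in all genotypes (29.8% to 43.2%).

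Each other Nfatc3 circle held at most 3.4% of the gene's Illumina reads, and none had a called change. The exons 2-3 circle (chr8:106805236-106810605, 1301 bases) starts at the same exon 2 boundary as the exon 2 circle. It had 161, 82 and 77 CIRIquant reads in WT, 154, 92 and 178 in Adar2KO, with 127, 45 and 170 in Adar1-2KO, with overlapping groups and a log2 difference of -0.46 ± 0.55 against WT (edgeR, adjusted p of 1). The exons 5-9 circle (chr8:106822796-106835761, 1502 bases) ranged from 21 to 112 reads. The exons 5-7 circle (chr8:106822796-106827621, 370 bases), which ends where the exons 6-7 circle ends, had 63, 51 and 32 reads in WT, 0, 6 and 109 in Adar2KO, with 43, 69 and 251 in Adar1-2KO. Its Adar2KO libraries thus ran from absent to above WT. The exons 3-9 circle (chr8:106810443-106835761, 1865 bases) had 69, 44 and 21 reads in WT, 42, 50 and 26 in Adar2KO, with 22, 20 and 0 in Adar1-2KO, with a log2 difference of -1.84 ± 1.24 against WT (edgeR, adjusted p of 0.958) and no overlap in CPM.

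Further Nfatc3 circles stayed low. Exon 9 alone (chr8:106834757-106835761, 1005 bases) had 31, 28 and 31 reads in WT, 14, 7 and 11 in Adar2KO, with 19, 25 and 5 in Adar1-2KO. It had the lowest unadjusted p of any member circle in Adar2KO against WT, 0.137, with a log2 difference of -1.77 ± 1.12 and an adjusted p of 1 (edgeR). The exons 3-5 circle of Nfatc3 and the exons 3-6 circle of Ppp3cc followed, with 2.71 ± 1.87 and 2.36 ± 1.63. The Nfatc3 circles of exons 6-8, 5-8 and 3-8 had at most 52, 35 and 36 reads in any library. The longest, exons 2-9 (chr8:106805236-106835761, 3003 bases), fell next to the exon 2 circle in rank by unadjusted p in Adar1-2KO against WT (0.00894), with a fitted log2 difference of -6.77 ± 2.19 and an adjusted p of 0.718 that did not pass. Its 59 reads in all 9 libraries make the fitted size depend on the prior count, and the authors' deposited table gives -4.35 with an adjusted p of 0.911.

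Within the gene, the exons 6-7 circle took a larger share of Nfatc3 circle reads in Adar1-2KO. By CIRIquant its share was 66.0%, 68.9% and 73.1% in WT, 70.7%, 64.6% and 77.2% in Adar2KO, with 87.0%, 84.2% and 86.3% in Adar1-2KO. The Adar1-2KO libraries lay above all others, by 16.5 percentage points on average over WT and by 15 over Adar2KO. The two-sided exact permutation test gave p = 0.1 for both, the smallest p that 3 against 3 libraries allow, and 0.15 after Benjamini-Hochberg adjustment over 3 comparisons. By CIRI2 the shares were 64.2%, 61.4% and 71.8% in WT, 69.8%, 63.0% and 76.8% in Adar2KO, with 76.6% and 74.1% in Adar1-2KO. There the difference was 9.54 points over WT (exact permutation p = 0.2, the smallest possible with 2 against 3) and 5.46 points over Adar2KO with overlapping groups (exact permutation p = 0.6). With ONT the shares were 34.2% and 44.5% in WT, 38.3%, 18.2% and 25% in Adar2KO, with 71.0%, 68.6% and 70.1% in Adar1-2KO. The ONT difference was 30.5 points over WT (exact permutation p = 0.2, the smallest possible) and 42.7 points over Adar2KO (exact permutation p = 0.1, the smallest possible).

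**Figure D3:**
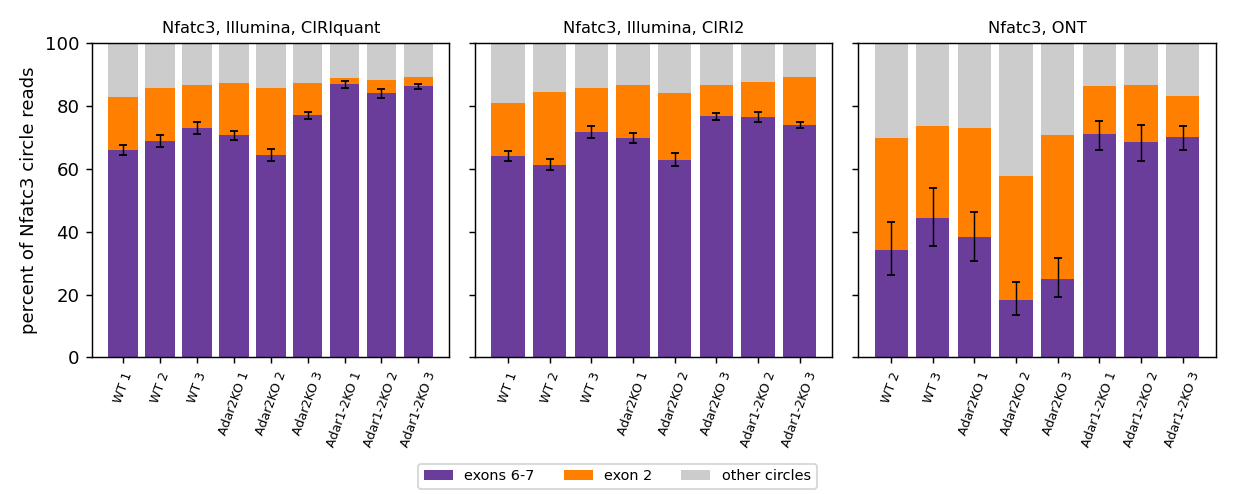
Share of Nfatc3 circle reads in the exons 6-7 circle, the exon 2 circle and all other circles, in percent per library, for CIRIquant, CIRI2 and ONT counts; error bars are 95% Wilson intervals of the exons 6-7 share and cover counting error only. The exon 2 share of Adar1-2KO is 2.0% to 4.1% by CIRIquant but 11% and 15.1% by CIRI2 and 13.0% to 18.0% by ONT.

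The exon 2 share moved in the opposite direction. Its group means were 15.8% in WT, 16% in Adar2KO and 3.1% in Adar1-2KO by CIRIquant, 17.9%, 16% and 13% by CIRI2, and 32.5%, 40.1% and 15.4% by ONT. Thus 2 of the readouts, CIRIquant and ONT, had every Adar1-2KO library below every other library, and in CIRI2 the groups overlapped. Both shares are parts of the same total, so the exon 2 share is not separate from the exons 6-7 share. The low CIRIquant counts of exon 2 in Adar1-2KO also raise the exons 6-7 share there. In CPM the exon 2 circle lay below all other libraries by CIRIquant only, and on ONT it overlapped between the mutants. The test of circle usage within a gene (edgeR diffSpliceDGE, which compares each circle with its gene's average) called 0 of 72 member circles in any of the 3 comparisons, where it called 0.0373%, 0.0976% and 0.0546% of all circles in Adar2KO against WT, Adar1-2KO against WT and Adar1-2KO against Adar2KO. At an unadjusted p under 0.05 it had 0, 6 and 3 members, beside 1.89%, 5.87% and 5.81% of all circles. The exon 2 circle had usage differences of -2.36 (adjusted p of 0.456) and -2.27 (adjusted p of 0.539) on the log2 scale in the Adar1-2KO comparisons. For the exons 6-7 circle this edgeR test gave only 0.31 against WT and 0.25 against Adar2KO (unadjusted p of 0.637 and 0.696). The alternative test on voom weights (limma diffSplice) called the exon 2 circle and the exons 6-7 circle in both, with values of -2.75 and 1.71 against WT and -2.56 and 1.54 against Adar2KO, and called 0.413% and 0.299% of all circles. In Adar2KO against WT it called 0 members and 0.0775% of all circles. The same edgeR test on CIRI2 counts and on ONT reads, added after seeing the data, called 0 of 80 members by CIRI2 and 0 of 25 by ONT in each comparison. Over all circles it called 0.034%, 0.134% and 0.0583% with CIRI2 counts and 0%, 0.0125% and 0.0499% with ONT reads, in the same order of comparisons. With CIRI2 counts it gave 0.18 against WT and 0.07 against Adar2KO for the exons 6-7 circle in Adar1-2KO (unadjusted p of 0.792 and 0.92). For the exon 2 circle the CIRI2 values were -0.42 and -0.15 (unadjusted p of 0.603 and 0.853). For ONT, Adar1-2KO against Adar2KO, it gave 1.38 for the exons 6-7 circle (adjusted p of 0.344) and -1.40 for the exon 2 circle (adjusted p of 0.435).

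Nfatc2, the close relative of Nfatc3, spread its reads over other exons. Its most abundant circle was made of exons 7 to 9 (chr2:168346365-168349290, minus strand, 873 bases), with 44.8% of its Illumina and 49.9% of its ONT reads. CIRIquant counted 258, 168 and 91 reads in WT, 175, 197 and 287 in Adar2KO, with 183, 170 and 0 in Adar1-2KO. The zero of Adar1-2KO replicate 3 was also 0 by CIRI2, while the ONT library of that number had 35 reads. ONT counts were otherwise 13 and 19 in WT, 19, 41 and 25 in Adar2KO, with 30 and 27 in Adar1-2KO. No difference passed, with -0.73 ± 1.06 for Adar1-2KO against WT on Illumina and -0.09 ± 0.50 on ONT.

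Next among the Nfatc2 circles were those of exons 2-3 (chr2:168409059-168413553, 1208 bases) and exons 4-5 (chr2:168376838-168378325, 376 bases), with 27.5% and 16.7% of the gene's Illumina reads. Exons 2-3 had 133, 73 and 71 reads in WT, 121, 85 and 86 in Adar2KO, with 97, 75 and 197 in Adar1-2KO, with mean levels of 39.7, 37.5 and 36.5 CPM in WT, Adar2KO and Adar1-2KO. On ONT it had 14 and 19 reads in WT, 19, 29 and 17 in Adar2KO, with 8, 0 and 17 in Adar1-2KO, with a log2 difference of -2.27 ± 0.87 against WT (edgeR, adjusted p of 0.588). Exons 4-5 had 59, 28 and 25 reads in WT, 107, 32 and 60 in Adar2KO, with 158, 72 and 30 in Adar1-2KO, so the groups overlapped. The circle chr2:168409059-168413033, whose ends were not both matched to exons of the 1 transcript used for Nfatc2, had at most 43 reads, and the exons 6-9 circle at most 17. Taking Nfatc3 and Nfatc2 together, 29 pairs of first and last exon were listed for either gene and 10 for both. The pairs of exons 6-7 and exon 2 alone were listed for Nfatc3 and not for Nfatc2, and exons 7-9 for Nfatc2 and not for Nfatc3.

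Nfat5, the osmotic stress factor, had few circle reads, and 1 library held much of them. Its exons 2-6 circle (chr8:108071418-108082454, plus strand, 745 bases) had 0, 29 and 12 reads in WT, 8, 2 and 14 in Adar2KO, with 38, 0 and 203 in Adar1-2KO. On ONT the counts were 3 and 0 in WT, 0, 0 and 5 in Adar2KO, with 6, 3 and 42 in Adar1-2KO, so replicate 3 was highest on both platforms. A neighbouring circle with the same end (chr8:108065441-108082454) had 199 reads in Adar1-2KO replicate 3 and at most 11 in any other Illumina library. With ONT it had 19 reads in that replicate and at most 8 elsewhere. The circle chr8:108065441-108078231 had 37, 18 and 8 reads in WT, 17, 12 and 15 in Adar2KO, with 1, 4 and 0 in Adar1-2KO. Adar1-2KO lay below both other groups, which overlapped, with a log2 difference of -3.62 ± 1.47 against WT and -3.05 ± 1.44 against Adar2KO, and adjusted p of 0.718 and 0.784 by edgeR. The circle chr8:108065441-108088456 had at most 33 reads, and the intron circle chr8:108061544-108062116 at most 28.

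The calcineurin genes share their exon layout, with exons 3 to 9 of the same lengths in all 3. The stretch of exons 3 to 8 is 696 bases long in each, and 76.7% of it was identical between Ppp3ca and Ppp3cb, 77% between Ppp3ca and Ppp3cc, and 74.4% between Ppp3cb and Ppp3cc. Their circles nevertheless used these exons unequally. Of 46 pairs of first and last exon listed for any of the 3 genes, 9 were listed for all 3. Circles starting at exon 2 held 77.8% of Ppp3cc reads, 71.6% of Ppp3cb reads and 33.8% of Ppp3ca reads by CIRIquant, and 55.3% of Ppp3ca reads lay in circles that start at exon 3. The exons 3-8 circle, the main one of Ppp3ca, was not listed for Ppp3cb or Ppp3cc in any Illumina or ONT library.

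**Figure D4:**
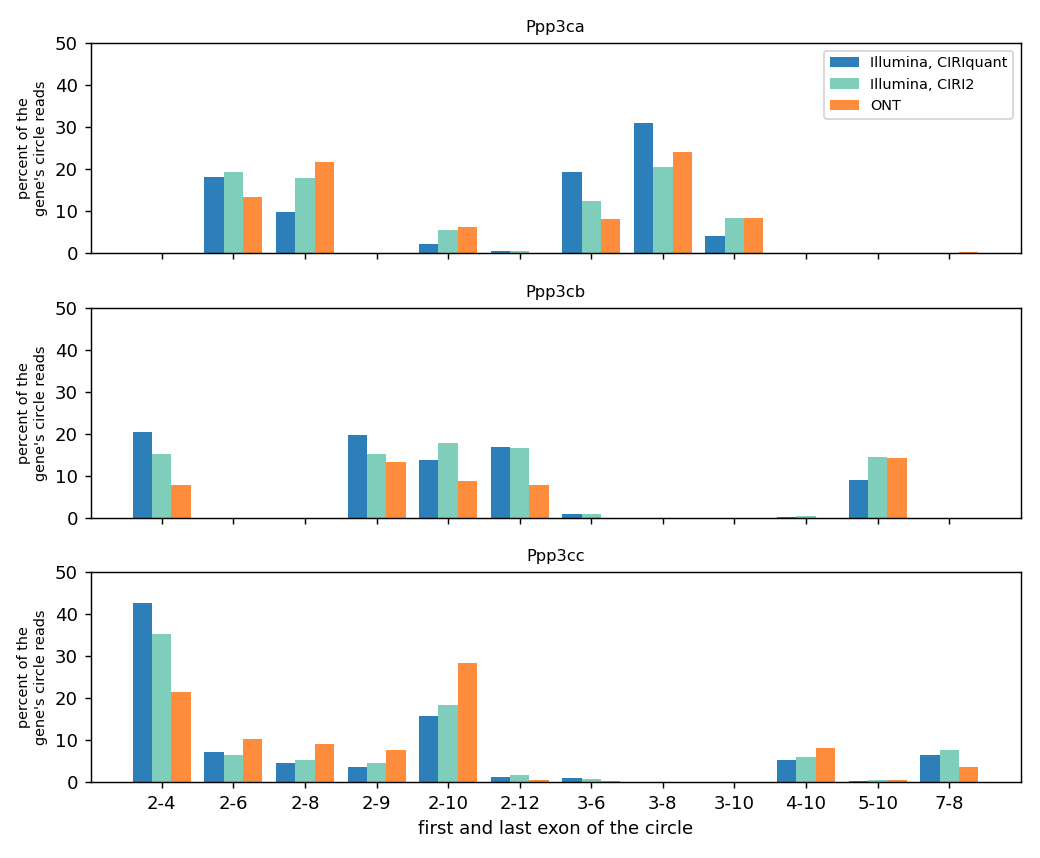
Share of each calcineurin gene's circle reads, in percent, by the first and last exon of the circle, for CIRIquant, CIRI2 and ONT counts summed over the libraries of each. Ppp3cc is led by exons 2-4 on Illumina (42.6%) and exons 2-10 on ONT (28.5%), and exons 3-8 appear for Ppp3ca only.

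Ppp3ca encodes the alpha catalytic subunit, the main form in brain. Its exons 3-8 circle (chr3:136574363-136596291, plus strand, 696 bases) had 182, 119 and 108 CIRIquant reads in WT, 270, 125 and 307 in Adar2KO, with 410, 151 and 683 in Adar1-2KO. The mean level was 59.5 ± 7.57 CPM in WT, 87.1 ± 28.6 in Adar2KO and 118 ± 49.8 in Adar1-2KO (SD, n = 3), with overlapping groups and a log2 difference of 0.99 ± 0.46 against WT (edgeR, adjusted p of 0.74). On ONT it had 15 and 16 reads in WT, 22, 21 and 24 in Adar2KO, with 69, 35 and 174 in Adar1-2KO. In ONT CPM these were 69.18 and 78.58 in WT, 58.97, 50.06 and 55.49 in Adar2KO, with 164.2, 119.5 and 268.5 in Adar1-2KO, so the groups did not overlap. The ONT log2 difference of Adar1-2KO was 1.75 ± 0.37 against Adar2KO (edgeR, adjusted p of 0.108) and 1.32 ± 0.44 against WT (adjusted p of 0.511). Neither passed, and DESeq2 called the first with an adjusted p of 0.01.

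Other Ppp3ca circles depended on the caller in every genotype. The exons 2-8 circle (chr3:136503487-136596291, 897 bases) had 80, 37 and 51 CIRIquant reads in WT against 251, 124 and 122 CIRI2 reads. Over the 8 libraries its CIRIquant counts were 29.8% to 43.2% of its CIRI2 counts. For exons 2-6 (chr3:136503487-136587301, 724 bases) this ratio was 43.0% to 63.6%, and for exons 3-10 (chr3:136574363-136611134, 897 bases) 11.9% to 44.9%. It was 81.5% to 90.0% for exons 3-8 and 86.1% to 97.0% for exons 3-6 (chr3:136574363-136587301, 523 bases). As a result the exons 2-8 circle was 9.9% of the gene's reads by CIRIquant, 17.9% by CIRI2 and 21.7% by ONT, and the exons 3-8 circle 31.0%, 20.5% and 24.1%. Platforms were compared over the 61 member circles that passed the Illumina filter and were also listed on ONT. The log10 total of CIRIquant reads correlated with that of ONT reads with Pearson's r of 0.887 (Spearman's rho of 0.87), and CIRI2 with r of 0.925 (rho of 0.90). The circles share their libraries and genes, so these are descriptions. The exons 3-10 circle had 10, 12 and 9 CIRIquant reads in WT, 19, 22 and 34 in Adar2KO, with 19, 8 and 182 in Adar1-2KO, where replicate 3 was far above the rest. On ONT it had 4 and 6, then 4, 5 and 6, then 17, 11 and 79 reads in the same order, with a log2 difference of 2.44 ± 0.69 between the mutants (edgeR, adjusted p of 0.223).

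Ppp3cc encodes the gamma catalytic subunit, better known from testis. Its exons 2-4 circle (chr14:70493809-70504955, minus strand, 435 bases) was the second most abundant member circle on Illumina, with 838, 455 and 284 reads in WT, 576, 455 and 855 in Adar2KO, with 826, 363 and 620 in Adar1-2KO. Its mean level was 215.5 ± 45.5, 235.4 ± 45.5 and 185.1 ± 52.2 CPM in the 3 genotypes (SD, n = 3), and the groups overlapped. On ONT the exons 2-10 circle (chr14:70472589-70504955, 1089 bases) led, with 23 and 30 reads in WT, 32, 39 and 56 in Adar2KO, with 34, 16 and 53 in Adar1-2KO. Its Illumina counts were 223, 253 and 103, then 219, 203 and 285, then 259, 94 and 306 reads in the same order of genotypes. The circles of exons 2-6, 7-8 and 4-10 had 53 to 187, 12 to 175 and 25 to 142 Illumina reads per library, and none of their differences passed. Ppp3cb, the gene of the beta subunit, had no circle above 35 CIRIquant reads in any library. Its leading circles were exons 2-4 (chr14:20578226-20581928, minus strand, 20.4% of its reads), exons 2-9 (19.6%) and exons 2-12 (16.9%), and all of these were at 0 in Adar1-2KO replicate 3. The ONT circle with most reads under its name (chr14:20551014-20551455, 22 reads, all in Adar1-2KO replicate 3) is listed as antisense, on the plus strand, and is not a circle of the Ppp3cb transcript. The leading sense circle on ONT was exons 5-10 (chr14:20565591-20574570), with 13 reads.

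Summed per gene, the members kept their order of abundance in the 3 genotypes on Illumina and no gene changed. Nfatc3 had 1181 ± 79.9 CPM in WT, 1297 ± 353 in Adar2KO and 1290 ± 209 in Adar1-2KO (SD, n = 3). Ppp3cc had 475.7 ± 70.3, 528.3 ± 84.3 and 462.2 ± 95.3 CPM. Ppp3ca, with 252.5 ± 42.5, 295.2 ± 47.5 and 345.7 ± 74.2 CPM, and Nfatc2, with 142.5 ± 10.1, 161.7 ± 11.8 and 120.5 ± 43.1 CPM, overlapped between genotypes. Nfat5 (37.5 ± 13.9, 35.1 ± 2.30 and 53.5 ± 52.2 CPM) and Ppp3cb (27.9 ± 14.0, 29.7 ± 5.84 and 19.5 ± 16.0 CPM) were lowest, and these neighbours in the order did not differ beyond their spread. The edgeR test called 0 of 6 genes in each comparison, with 0 at an unadjusted p under 0.05 and 0 by DESeq2. Over all host genes, edgeR called 0.0731%, 0.0853% and 0.0366% in Adar2KO against WT, Adar1-2KO against WT and Adar1-2KO against Adar2KO. At an unadjusted p under 0.05 there were 1.79%, 7.62% and 6.4% of them. DESeq2 called 0.574%, 0.803% and 0.567% of the 2789, 5109 and 3880 genes it gave an adjusted p, out of 8203 tested.

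**Figure D5:**
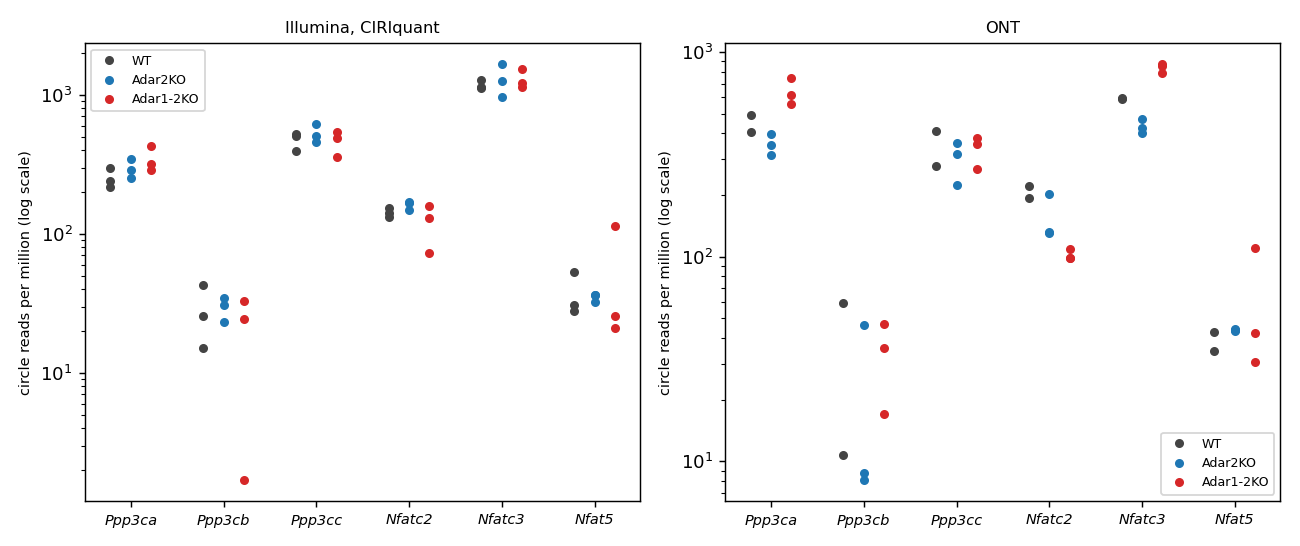
Circle reads summed per gene, in CPM on a log axis, for the Illumina (CIRIquant) and ONT libraries, where points are libraries coloured by genotype. Nfatc3 is highest on both platforms, and its 3 Adar1-2KO libraries lie above all others on ONT only.

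On ONT the CPM of the genotypes did not overlap for Nfatc3 and Ppp3ca, nor that of Adar1-2KO with the others for Nfatc2. The share of all ONT genes without overlap was not computed, and WT had 2 libraries, so these separations are given as values only. Nfatc3 had 594.2 and 592 CPM in WT, 402.6, 471.4 and 427 in Adar2KO, with 848.9, 871.4 and 790.4 in Adar1-2KO, with no overlap between groups. The rise of Adar1-2KO over Adar2KO was 0.95 ± 0.18 on the log2 scale (edgeR, adjusted p of 0.0217), the only member gene called, where 0.989% of all host genes were called, 0.647% as higher. At an unadjusted p under 0.05 there were 2 members (13% of all genes). DESeq2 called 2 members and 7.61% of the 2299 genes it gave an adjusted p. The call was lost when any library other than Adar1-2KO replicate 3 was left out (adjusted p of 0.0638 to 0.153) and with only the groups compared (0.0644). Ppp3ca followed the same order, with 406.1 and 489.7 CPM in WT, 313.5, 352.5 and 399.1 in Adar2KO, with 613.7, 557 and 747.3 in Adar1-2KO. Its difference of 0.85 ± 0.21 between the mutants did not pass (adjusted p of 0.0733), though DESeq2 gave 0.00567. Nfatc2 ran the other way, with 193.1 and 220.6 CPM in WT, 132.4, 202.7 and 129.9 in Adar2KO, with 98.55, 109.3 and 98.25 in Adar1-2KO. Its Adar1-2KO libraries were below all others, with a difference of -1.02 ± 0.33 against WT (edgeR, adjusted p of 0.279) that did not pass. For the 2 other ONT comparisons edgeR called 0 of 6 genes, with 1 (Adar2KO against WT) and 3 (Adar1-2KO against WT) at an unadjusted p under 0.05, 0 by DESeq2, and 0.0761% and 0.038% of all genes called. Of all genes, 5.9% and 10.2% had an unadjusted p under 0.05. DESeq2 called 0.4% and 2.34% of the 2503 and 2605 genes it gave an adjusted p.

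Calls over all tested member circles are set here beside those over all circles. The DESeq2 shares are of the circles to which it gave an adjusted p, which are fewer than those tested. On Illumina, edgeR called 0 of 72 in Adar2KO against WT, where 0.0209% of all circles were called, with 0 members at an unadjusted p under 0.05 (1.82% of all). DESeq2 called 0 members there and 0.14% of its 25011 circles. In Adar1-2KO against WT the exon 2 circle of Nfatc3 was the 1 call by edgeR and by DESeq2, which called 0.637% of its 28721 circles. By edgeR, 5 members (6.94%) against 6.74% of all circles had an unadjusted p under 0.05. In Adar1-2KO against Adar2KO edgeR called 0 of 72 against 0.0209% of all circles, with 2 members (2.78%, against 6.38% of all) at an unadjusted p under 0.05. DESeq2 called 1 member there and 0.627% of its 28721 circles. The median log2 difference was 0.21, -0.22 and -0.34 over the members and 0.04, -0.26 and -0.31 over all circles in these comparisons. The groups did not overlap in CPM for 9, 11 and 9 members (12.5%, 15.3% and 12.5%), beside 10.9%, 12.6% and 11.8% of all circles. These comparisons share their control libraries. On ONT, edgeR called 0 of 25 members in Adar2KO against WT (0.00965% of all circles) and 0 in Adar1-2KO against WT (0% of all). At an unadjusted p under 0.05 there were 1 and 4 members (4.28% and 7.49% of all circles). DESeq2 called 0 and 1 members, and 1.4% and 6.98% of the 716 circles it gave an adjusted p, out of 10367 tested. The Nfatc3 exons 6-7 circle was the only tested member among those 716. Between the mutants edgeR had 4 members at an unadjusted p under 0.05, where 10.6% of all circles were. DESeq2 called 2 members there and 5.14% of the 3522 circles it gave an adjusted p.

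Forward-splice reads, which cross the linear junctions at a circle's ends, could be compared for 14 member circles. For the Nfatc3 exons 6-7 circle CIRIquant gave 570 forward-splice reads in Adar2KO 1, 4 in Adar2KO 2 and 0 in the other 7 libraries. The exon 2 circle had 7, 37 and 0 in WT, 0, 36 and 52 in Adar2KO, with 23, 23 and 172 in Adar1-2KO. For the Ppp3ca exons 3-6 circle the counts were 0 in Adar2KO 3 and Adar1-2KO 2, 1114 to 2146 in 6 libraries and 7447 in Adar1-2KO 3. Of all member values 49.8% were 0, beside 45.3% over all circles, after RNase R had removed linear RNA. The limma test of the log2 ratio of back-splice to forward-splice reads called 0 of 14 members in each comparison, with 0 at an unadjusted p under 0.05. Of all circles 0.0787%, 0.0944% and 0.189% were called in Adar2KO against WT, Adar1-2KO against WT and Adar1-2KO against Adar2KO, and 2.93%, 4.82% and 5.12% had an unadjusted p under 0.05.

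Adar1-2KO replicate 3 was the highest library for 13 of the 72 Illumina member circles (18.1%, against 14.0% of all circles) and for 9 of the 25 ONT member circles (36.0%, against 19.3% of all). The Ppp3cc exons 2-8 circle (chr14:70478178-70504955, 894 bases) was an example, with 66 ONT reads there and at most 8 in any other ONT library. Flow cells were read from the names of the junction reads. All 3 WT libraries, Adar1-2KO 2 and 87.35% of the reads of Adar2KO 3 came from 1 flow cell. Within those 5 libraries the exon 2 circle differed by -1.94 ± 0.29 between Adar1-2KO and WT (edgeR, adjusted p of 0.167). Adar1-2KO and Adar2KO have 1 library each there, so this fit assumes that a lone library varies like the WT libraries. Adar2KO 1 and 2 were mainly on another flow cell (90.13% and 95.84% of reads), and Adar1-2KO 3 was split over others (51.27% and 48.73%). The flow cell of Adar1-2KO 1 was not read. Flow cell and genotype therefore cannot be fully told apart. Circles of the 3 endothelial markers, all detected, summed to 13.2 to 80.2 CPM in Adar1-2KO and 4.85 to 13.7 in the other genotypes. Circles of 4 of 5 oligodendrocyte lineage markers summed to 362 to 515 CPM in Adar1-2KO, 303 to 381 in Adar2KO and 290 to 323 in WT. The part of either list in the results was not tested.

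The wider calcineurin pathway had no gene called by edgeR, while DESeq2 called Trpc6 and Cabin1. Of 49 other genes on a list of calcineurin partners, NFAT kinases, calcium channels and substrates, 39 had enough circle reads, and edgeR called 0 in each of the 3 comparisons, with 2 in each at an unadjusted p under 0.05. Over all host genes edgeR called 0.0731%, 0.0853% and 0.0366%, and 1.79%, 7.62% and 6.4% had an unadjusted p under 0.05. The pathway genes' median log2 difference was 0.07, 0.08 and 0.06, beside 0.01, -0.08 and -0.12 over all genes. Ryr2, a calcium release channel, was the most abundant with 2235 CPM over the 9 Illumina libraries. It was followed by Cacna1c (438.8 CPM), a voltage-gated calcium channel, Trpc6 (335.7), a cation channel, and Ryr3 (314.7), another release channel. Camk4 (271.6), a calcium-activated kinase, Stim2 (260.4), a calcium sensor of the endoplasmic reticulum, Mef2a (205.4), a transcription factor, and Dyrk1a (169.6), an NFAT kinase, came next. The DESeq2 calls were of Trpc6 and Cabin1, a calcineurin inhibitor, in Adar2KO against WT and of Trpc6 between the mutants. Of the host genes it gave an adjusted p, DESeq2 called 0.574% in Adar2KO against WT, 0.803% in Adar1-2KO against WT and 0.567% between the mutants. Trpc6 had 777.1, 267.3 and 179.9 CPM in WT, 112.3, 136.2 and 108.1 in Adar2KO, with 408.8, 407.7 and 624 in Adar1-2KO. All Adar2KO values were lowest, and edgeR gave -1.78 ± 0.44 against WT with an adjusted p of 0.81 (DESeq2, 0.0213). Between the mutants the Trpc6 difference was 2.01 ± 0.44 (edgeR, adjusted p of 0.302, DESeq2 0.00208). Cabin1 had 141.3, 142 and 182.5 CPM in WT, 41.08, 63.49 and 81.56 in Adar2KO, with 85.15, 86.82 and 102.4 in Adar1-2KO, with no overlap among the 3 groups. Its difference of -1.32 ± 0.32 in Adar2KO against WT had an adjusted p of 0.799 by edgeR and 0.0213 by DESeq2.

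The circles of other genes whose level followed the Nfatc3 exons 6-7 circle most closely over the 9 Illumina libraries included those of Faf1 (Pearson's r of 0.966), Usp34 (0.944), Ccar1 (0.94) and Brsk2 (0.933), out of 1497 circles of at least 100 CPM. With the same CIRIquant counts, the Nfatc3 exon 2 circle correlated with the exons 6-7 circle at r of -0.494. For the exon 2 circle these counts were only 33.9% and 17.6% of the CIRI2 counts in Adar1-2KO 2 and 3. Whether the negative correlation holds with the other caller was not tested. The correlations describe the same 9 libraries and carry no test.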

How the data were processed

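Circle-enriched RNA of mouse whole brain was read on Illumina and ONT. Per the labels, 5 µg of total RNA per sample was treated with RNase R and the cDNA amplified for 14 PCR cycles. The design text calls the replicates biological; whether equal numbers on the 2 platforms are 1 animal is not stated. Per the submitters' processing notes, bcl2fastq, BWA 0.7.17, CIRIquant 1.1.2, DESeq2 2.11.40.8 and build GRCm39 were used; the tool behind the ONT circles is not given in the sources used here.

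The authors deposited per-library counts of back-splice and forward-splice reads (CIRIquant), of junction reads (CIRI2, 2 or more) and of ONT reads per circle (2 or more); an unlisted circle was taken as 0. In the CIRIquant tables of the 3 Adar1-2KO libraries every row stood 1 column to the right of its header and was read so. The deposited circular fraction was recomputed from the counts to check this shift, and the deposited CPM column was not used. The authors' tables of each mutant against WT, with log2 fold changes, p-values, test scores and mean normalized signal, were quoted by name only.

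Counts were tested with edgeR 4.0.16 in R 4.3.3 (TMM, quasi-likelihood F-test, Benjamini-Hochberg over all circles or genes, threshold 0.05, a minimum of 5 reads in 3 or more libraries), with 1 fit per platform over all groups. Forward-splice shares used limma 3.58.1 on log2((back + 0.5)/(forward + 0.5)), at least 20 reads in every library. Alternatives included DESeq2 1.42.0, which gave part of the tested circles and genes no adjusted p, and its shares leave those out. Steps were tested on simulated data. Exon numbers come from exact matches of exon and intron lengths to GENCODE M21. The members and lists were chosen with earlier results of these data known. Circles named are the most abundant of each gene (5, or 10 for Nfatc3), all that were called, the leading ONT circle, the 3 of lowest p per comparison and platform, the 8 most abundant pathway genes, the 5 circles most like the top Nfatc3 circle (1 of which is not reported here), and those that illustrate the caller or a library; the last, with Cabin1, were chosen after their values were seen.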

Additional observations from a re-analysis of the deposited data

How the results depend on the processing

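Of 345 counts and shares recomputed under alternatives, 306 stayed within the limits set, 37 moved and 2 changed sign. The 1 member circle called on Illumina in Adar1-2KO against WT became 0 with DESeq2's size factors, a minimum of 10 reads, the replicate block, only the groups compared, CIRI2 counts, library sizes from mapped reads and the shared flow cell, and 0 to 1 with a library left out. In Adar1-2KO against Adar2KO the count of 0 became 1 at a threshold of 0.1, with DESeq2 and with no filter, and was 0 to 1 with a library left out (1 without Adar1-2KO replicate 3). The log2 difference of the Nfatc3 exon 2 circle between the mutants changed sign to 0.02 with CIRI2 counts. Usage calls went from 0 to 2 with limma diffSplice in both Adar1-2KO comparisons. On ONT, DESeq2 called 1 circle against WT and 2 against Adar2KO; the 1 host gene called became 2 at a threshold of 0.1 and with DESeq2, 0 with only the groups compared, and 0 to 2 with a library left out. Calls of pathway genes, summed over the 3 comparisons, went from 0 to 3 with DESeq2, 2 with no filter and 1 without WT replicate 1. For the share of the Nfatc3 exons 6-7 circle, leaving out a library gave -1.7 to 4.63 points in Adar2KO against WT (-0.187 without WT replicate 1 and -1.7 without Adar2KO replicate 3), 14.8 to 18.4 in Adar1-2KO against WT and 11.8 to 18.2 against Adar2KO. Libraries of the same number did not deviate together (9 pairs, correlations of -0.0214 to 0.0142), so the block only shares a number; it changed the count of calls only in Adar1-2KO against WT, from 1 to 0. ONT depth limits the precision for circles of a few reads.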
